A study of Mus musculus with 8 samples.

Results

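The genes described here encode the molecules that display peptides to T cells in the mouse, with the proteins that load and switch them on. They were taken from a table of gene expression in kidney as every row whose symbol starts with H2- together with B2m, Tap1, Tap2, Tapbp, Cd74, Ciita and Nlrc5, which gave 52 of 55401 genes. Class I comprised 37 of them and class II 14. The remaining gene, H2-Ke6, lies in the same region but encodes an enzyme of steroid and fatty acid metabolism and no MHC chain, and it is given apart.

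Kidney RNA was sequenced with 1 library per mouse from 4 mice treated with rFGF4 and 4 treated with vehicle, and the comparison asks how rFGF4 altered gene expression in the diabetic kidney. rFGF4 is a recombinant, non-mitogenic form of human FGF4, given by intraperitoneal injection every other day, with PBS as vehicle. All 8 mice were diabetic and none carried another treatment in the labels. The labels give the genotype as db/db model, a line without working leptin receptor that the methods place on the C57BLKS/J strain. The text on the sequencing instead names mice made diabetic with streptozotocin, without a strain. In the study, streptozotocin was given to C57BL/6 mice and to floxed and knockout lines. No non-diabetic kidney was in the comparison. The mice keep their label numbers, 1, 2, 3 and 5 for rFGF4 and 2, 3, 4 and 5 for vehicle.

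Class I molecules pair a heavy chain with the light chain B2m and carry peptides cut by the proteasome and moved into the endoplasmic reticulum by the Tap1 and Tap2 transporter, where tapasin (Tapbp) holds the complex until a peptide fits. Class II molecules pair an alpha with a beta chain, are guarded by the invariant chain Cd74 and receive their peptides in endosomes with the help of the DM proteins; they are made mainly by dendritic cells, macrophages and B cells, and by other cells exposed to interferon gamma. Nlrc5 and Ciita are the transcriptional activators of the class I and the class II genes, and both act at a promoter module with an X box and a Y box.

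Promoters are shown for 5 members to mark this module and the interferon response element, sequence features through which such genes can be switched on. Not every window holds both, and whether the genes are switched on together through them was not tested. Each window runs from 250 bases before to 50 after the gene start in the RefSeq annotation of GRCm38.p6, a C57BL/6J sequence, and is written on the strand of the gene. Capitals mark an X box core ACNGATG followed on the same strand by a Y box core ATTGG with 5 to 30 bases between, or an interferon response element core TTTCNN followed by TTC or TTTC, on either strand.
H2-Eb1, chr17:34305617-34305916, plus strand: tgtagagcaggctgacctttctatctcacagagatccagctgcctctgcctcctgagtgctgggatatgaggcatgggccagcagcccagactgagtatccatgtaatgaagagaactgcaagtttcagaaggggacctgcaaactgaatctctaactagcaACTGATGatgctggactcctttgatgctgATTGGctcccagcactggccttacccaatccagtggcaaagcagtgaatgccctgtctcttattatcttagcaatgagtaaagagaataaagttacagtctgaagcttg
H2-DMb1, chr17:34152941-34153240, plus strand: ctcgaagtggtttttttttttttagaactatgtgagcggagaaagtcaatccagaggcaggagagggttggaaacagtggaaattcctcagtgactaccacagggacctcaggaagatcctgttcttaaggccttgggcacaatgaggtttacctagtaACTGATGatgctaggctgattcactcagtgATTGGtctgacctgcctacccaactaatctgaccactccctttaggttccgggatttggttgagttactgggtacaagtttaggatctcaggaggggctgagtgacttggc
H2-D1, chr17:35262844-35263143, plus strand: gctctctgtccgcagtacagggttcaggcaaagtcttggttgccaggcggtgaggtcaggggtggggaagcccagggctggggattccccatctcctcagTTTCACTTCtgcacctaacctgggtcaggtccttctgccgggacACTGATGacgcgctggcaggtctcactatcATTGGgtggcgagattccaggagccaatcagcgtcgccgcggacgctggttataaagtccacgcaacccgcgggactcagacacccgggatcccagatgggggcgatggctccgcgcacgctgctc
H2-K1, chr17:34000298-34000597, minus strand: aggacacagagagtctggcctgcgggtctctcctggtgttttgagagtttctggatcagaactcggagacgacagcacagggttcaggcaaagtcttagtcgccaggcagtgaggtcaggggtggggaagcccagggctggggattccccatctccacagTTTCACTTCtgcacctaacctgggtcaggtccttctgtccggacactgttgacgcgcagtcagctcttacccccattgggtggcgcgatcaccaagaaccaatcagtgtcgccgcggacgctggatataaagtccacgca
B2m, chr2:122147437-122147736, plus strand: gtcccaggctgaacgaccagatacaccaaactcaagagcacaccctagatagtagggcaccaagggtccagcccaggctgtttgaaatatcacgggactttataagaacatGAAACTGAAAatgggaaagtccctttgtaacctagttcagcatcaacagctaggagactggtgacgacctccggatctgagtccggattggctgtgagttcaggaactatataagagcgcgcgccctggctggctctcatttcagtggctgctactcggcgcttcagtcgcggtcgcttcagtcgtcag

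Among the members with a mean of at least 1 FPKM, promoter windows were at hand for 14 class I and 5 class II genes. The X and Y pair was found in 0.192% of 32851 promoters, on either strand, and in 3 of the 5 class II promoters (H2-Eb1, H2-DMb1 and H2-DMb2) and 5 of the 14 class I promoters (H2-D1, H2-Q4, H2-Q6, H2-Q7 and H2-M3). The interferon element, in either spelling, was found in 10.4% of all promoters, in 10 of 14 class I and in 0 of 5 class II promoters. The longer spelling was added after the B2m promoter had been seen; with TTTCNNTTC alone the shares were 7.52% of all promoters and 7 of 14 class I. The marked elements do not overlap in the windows shown, and each match is one of letters in this reference sequence only.

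Expression was given by the authors in FPKM, in which fragment numbers are divided by exon length and by the size of the library, so that levels can be set beside each other between genes; no counts were used here and the depth behind a value is unknown. Summed FPKM lay between 389407 and 529835 in the rFGF4 libraries and between 481321 and 552604 in the vehicle libraries. Of the 52 members, 31 had a mean of at least 1 FPKM, and 13 were listed at the floor of the table, 0.0001, in all 8 mice. Those 13 were 11 class I genes of the H2-M and H2-Q series (6 rows named H2-M10, and H2-M10.5-ps1, H2-M1, H2-M9, H2-M11 and H2-Q3) and the class II genes H2-Pa and H2-Pb. A gene was tested where it reached 0.5 FPKM in at least 4 libraries, which 21 class I genes, 9 class II genes and H2-Ke6 did.

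The libraries that stood apart were vehicle mouse 5 and rFGF4 mouse 1. The B cell markers Ms4a1, Cd79a, Cd79b and Pax5 summed to 47.9 FPKM in vehicle mouse 5 and to at most 4.64 FPKM in any other mouse. The proximal tubule markers Slc34a1, Slc5a2, Lrp2 and Cubn summed to 184 FPKM in rFGF4 mouse 1 and to between 586 and 1028 FPKM in the others. The next lowest sums were 586 FPKM in vehicle mouse 3, 601 FPKM in vehicle mouse 5 and 656 FPKM in rFGF4 mouse 2. The remaining mice lay between 869 and 1028 FPKM. The kidney markers of podocytes (Nphs1, Podxl) and of the distal nephron (Umod, Slc12a1, Slc12a3, Aqp2) summed to at least 33.2 and 1002 FPKM in every library, the latter mostly Umod. Slc12a1, Slc12a3 and Aqp2 were lowest in rFGF4 mouse 1, at 70.3, 20.5 and 109 FPKM, against at least 111, 55.7 and 124 FPKM in the others.

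In these kidneys, neither class I nor class II expression differed between rFGF4 and vehicle by more than the spread between mice, and that spread was wide. The highest value of a gene among the 8 mice exceeded the lowest by a median factor of 8.97 in class I and 20.5 in class II. The 4 highest values belonged to rFGF4 mice 1 and 2 and vehicle mice 3 and 5 in 28 of the 30 tested class I and II genes, an arrangement seen in 17.4% of all 15150 tested genes. These 4 mice were 2 of each group, and 0 of 21 class I and 0 of 9 class II genes met the cut-offs of the study, a p below 0.05 before adjustment with a change of 1.5-fold or more, applied here to limma on log2(FPKM + 1) in place of the edgeR test of the study, which 1.52% of all tested genes met (1.09% higher and 0.436% lower under rFGF4).

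The class II chain genes H2-Ab1, H2-Aa, H2-Eb1, H2-Ea, H2-DMa, H2-DMb1 and H2-DMb2 were read above the floor in every kidney. H2-Ab1, the beta chain of the I-A molecule, was measured at 138, 126, 30.4 and 21.1 FPKM in rFGF4 mice 1, 2, 3 and 5 and at 20.3, 209, 18.0 and 175 FPKM in vehicle mice 2, 3, 4 and 5. Each group thus held 2 mice above 100 FPKM and 2 mice near 20 to 30 FPKM, and the groups overlapped throughout. H2-Aa, its alpha chain, followed with 103, 64.5, 20.1 and 13.7 FPKM under rFGF4 and 8.11, 99.9, 10.5 and 166 FPKM under vehicle. Mean levels were 78.9 ± 61.7 FPKM (SD, n = 4) against 106 ± 101 for H2-Ab1, and 50.3 ± 41.7 against 71.2 ± 76.5 for H2-Aa. The log2 fold change, rFGF4 minus vehicle, was -0.07 ± 0.99 (SE) for H2-Ab1 (limma adjusted p = 0.994) and 0.06 ± 1.08 for H2-Aa (adjusted p = 0.996).

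**Figure D1:**
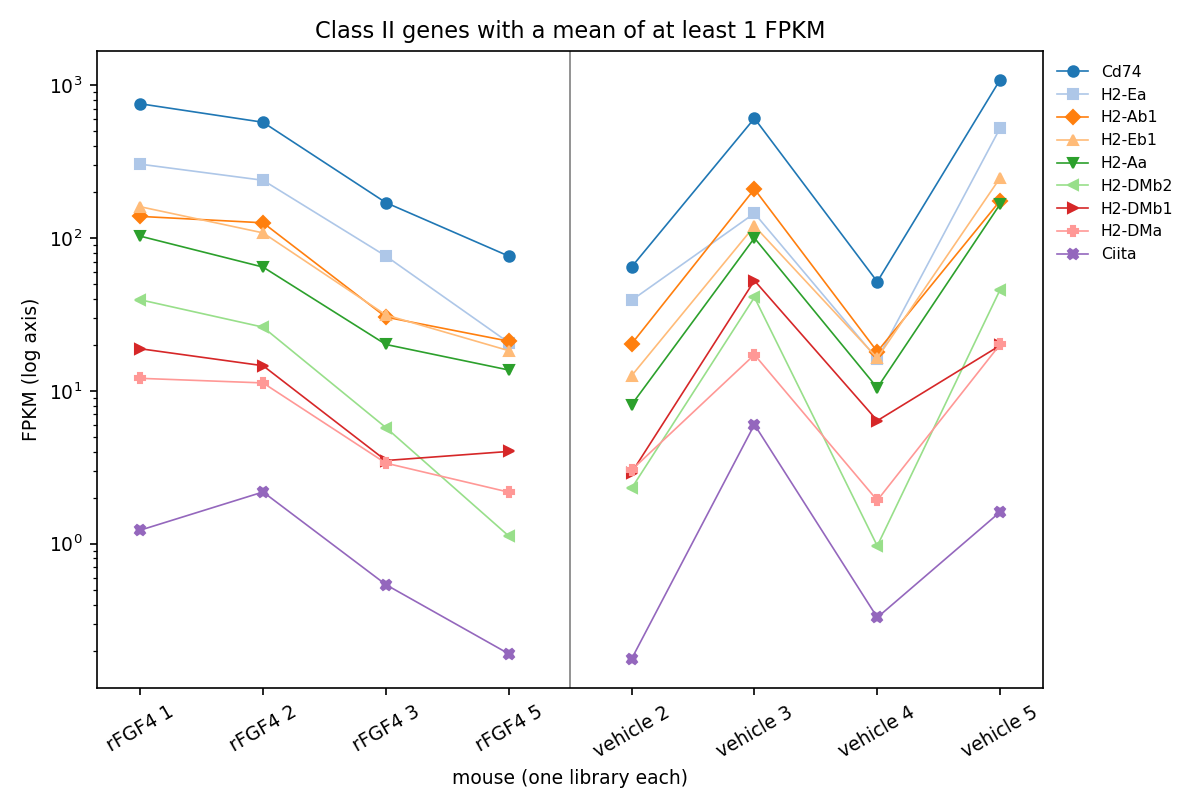
FPKM of the 9 class II genes with a mean of at least 1 FPKM in each of the 8 mice, on a log axis; each point is 1 gene in 1 library, lines join the mice of a group for legibility, and the vertical line parts rFGF4 from vehicle. All 9 genes have their 4 highest values in rFGF4 mice 1 and 2 and vehicle mice 3 and 5, so the groups overlap.

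The I-E molecule was highest in the same 4 mice. H2-Eb1, its beta chain, stood at 160, 108, 31.3 and 18.3 FPKM under rFGF4 and at 12.6, 120, 16.4 and 247 FPKM under vehicle. H2-Ea, its alpha chain (chr17:34341959-34344645 on GRCm38, the build of all gene positions here), stood at 304, 238, 76.1 and 20.7 FPKM under rFGF4 and at 39.1, 145, 16.1 and 524 FPKM under vehicle. In both genes vehicle mouse 5 was highest, and the lowest mouse, 2 or 4, was also a vehicle mouse. H2-Ea was therefore read in all 8 mice, at 0.985 to 3.11 times the level of H2-Eb1. As background, C57BL/6 mice carry a deletion in the H2-Ea promoter that silences the gene, and C57BLKS mice, with the d haplotype, express it; no genotype was read here. The log2 fold change was 0.30 ± 1.19 for H2-Ea (adjusted p = 0.98) and 0.16 ± 1.07 for H2-Eb1 (adjusted p = 0.984).

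Cd74, the invariant chain, was the most highly expressed class II gene in each of the 8 mice, at 755, 571, 170 and 76.1 FPKM under rFGF4 and 64.6, 606, 51.7 and 1084 FPKM under vehicle. Its log2 fold change was 0.33 ± 1.15, the highest of the class, with a 95% interval from -2.31 to 2.97 (adjusted p = 0.973; exact permutation p = 0.771, two-sided, with 0.0286 the smallest p that 4 mice against 4 allow). Ciita, the activator, was the lowest of the 9 in the mean, at 1.23, 2.18, 0.539 and 0.190 FPKM under rFGF4 and 0.176, 6.02, 0.329 and 1.61 FPKM under vehicle. Vehicle mouse 3 stood above every other mouse in Ciita, whereas vehicle mouse 5 stood highest in Cd74. The Ciita estimate was -0.29 ± 0.57 (adjusted p = 0.953).

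The DM genes encode the exchanger that removes the Cd74 fragment from the peptide groove. H2-DMa, the alpha chain, was at 12.1, 11.3, 3.36 and 2.17 FPKM under rFGF4 and 3.03, 17.2, 1.92 and 20.1 FPKM under vehicle. H2-DMb1 was at 18.8, 14.6, 3.5 and 4.01 FPKM under rFGF4 and 2.91, 52.6, 6.38 and 19.8 FPKM under vehicle. H2-DMb2, a second beta chain gene beside it, was at 39.4, 26.1, 5.75 and 1.12 FPKM under rFGF4 and 2.30, 40.9, 0.967 and 45.9 FPKM under vehicle. All 3 genes were high in the same 4 mice, but H2-DMb1 was highest in vehicle mouse 3 and H2-DMb2 in vehicle mouse 5. The ratio of H2-DMb2 to H2-DMb1 ran from 0.152 in vehicle mouse 4 to 2.32 in vehicle mouse 5. In the reference transcripts, 13.7% of the 100-base windows of H2-DMb1 recur in H2-DMb2, so reads can be shared between them and the split of their values is uncertain. Log2 fold changes were -0.26 ± 0.77 for H2-DMa, -0.55 ± 0.85 for H2-DMb1 and 0.07 ± 1.32 for H2-DMb2, with limma adjusted p of 0.970, 0.945 and 0.996.

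The remaining class II genes were low. H2-Oa and H2-Ob, the DO chains that B cells use to restrain DM, reached 3.0 and 0.991 FPKM in vehicle mouse 5, and 1.14 and 0.328 FPKM in rFGF4 mouse 1, the next highest. H2-Eb2 did not exceed 0.541 FPKM and was listed at the floor in 4 mice. None of the 3 was tested.

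Class I levels were high in the same mice, with a median range narrower than that of class II. B2m (chr2:122147686-122153083), the light chain of every class I molecule, was measured at 1097, 1289, 327 and 225 FPKM under rFGF4 and at 222, 1467, 226 and 1438 FPKM under vehicle. H2-D1 (chr17:35262730-35267499), a classical heavy chain, was at 370, 310, 97.8 and 87.3 FPKM under rFGF4 and 51.5, 376, 82.6 and 464 FPKM under vehicle. In both genes rFGF4 mice 1 and 2 and vehicle mice 3 and 5 were at least 3 times as high as the next mouse. Means were 734 ± 537 FPKM (SD, n = 4) and 838 ± 710 for B2m, and 216 ± 145 and 243 ± 207 for H2-D1, under rFGF4 and vehicle. The log2 fold change was -0.01 ± 0.86 for B2m (95% interval -1.97 to 1.96, limma adjusted p = 1.0) and 0.10 ± 0.81 for H2-D1 (interval -1.77 to 1.96, adjusted p = 0.989).

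H2-K1 (chr17:33996017-34000347), the other classical heavy chain, gave 43.4, 39.0, 20.2 and 22.0 FPKM under rFGF4 and 21.5, 83.6, 21.9 and 27.5 FPKM under vehicle. Unlike H2-D1, it was highest in vehicle mouse 3 alone, and vehicle mouse 5 lay close to the low mice. The ratio of H2-D1 to H2-K1 was 16.8 in vehicle mouse 5 and between 2.40 and 8.52 in the other 7 mice. The H2-K1 estimate was -0.13 ± 0.46 (adjusted p = 0.973). Heavy chain and class II genes differ in sequence between mouse strains, and how reads of another haplotype than the reference were mapped was not tested, so levels compared between these genes carry that uncertainty.

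**Figure D2:**
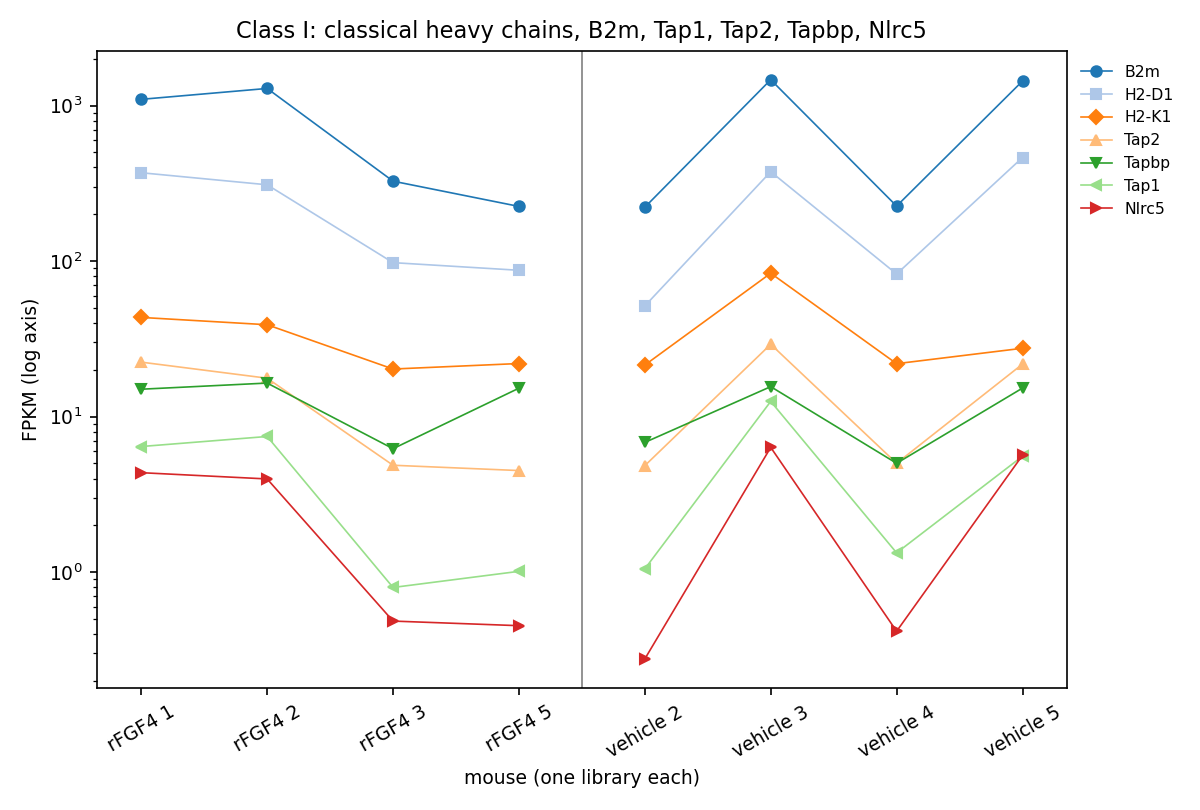
FPKM of the classical class I heavy chains, B2m, the Tap1 and Tap2 transporter, Tapbp and Nlrc5 in each of the 8 mice, on a log axis; points are single libraries and the vertical line parts rFGF4 from vehicle. H2-K1 in vehicle mouse 5 (27.5 FPKM) and Tapbp in rFGF4 mouse 5 (15.2 FPKM) depart from the pattern of high and low mice that B2m shows.

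The peptide transporter and the activator had their 4 highest values in the same mice as B2m. Tap1 was at 6.42, 7.45, 0.797 and 1.0 FPKM under rFGF4 and 1.05, 12.5, 1.33 and 5.56 FPKM under vehicle. Tap2 was at 22.4, 17.7, 4.87 and 4.50 FPKM under rFGF4 and 4.84, 29.2, 5.01 and 21.8 FPKM under vehicle. Nlrc5 (chr8:94434356-94527272) was at 4.36, 3.97, 0.484 and 0.453 FPKM under rFGF4 and 0.277, 6.34, 0.417 and 5.64 FPKM under vehicle. All 3 peaked in vehicle mouse 3, and in Nlrc5 the lowest of the 4 high mice stood 8.20 times above the next mouse, the widest such gap among the 30 tested genes. Their log2 fold changes were -0.23 ± 0.75, -0.19 ± 0.71 and -0.15 ± 0.74, with limma adjusted p of 0.972, 0.974 and 0.978.

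Tapbp was the exception within the machinery, at 15.0, 16.4, 6.22 and 15.2 FPKM under rFGF4 and 6.83, 15.6, 5.01 and 15.3 FPKM under vehicle. It was high in rFGF4 mouse 5, a mouse that was low for B2m, Tap1, Tap2 and Nlrc5. Its estimate of 0.34 ± 0.42 was the highest in class I (95% interval -0.61 to 1.29, adjusted p = 0.932, exact permutation p = 0.60).

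The other class I heavy chains, the H2-Q, H2-T and H2-M genes and H2-K2, serve more specialised roles, and 14 of these 30 genes were tested. H2-Q4 was at 46.2, 35.8, 9.45 and 10.2 FPKM under rFGF4 and 10.6, 53.3, 10.2 and 59.9 FPKM under vehicle. H2-T23, which encodes Qa-1, a ligand of receptors on natural killer cells, was at 21.5, 50.0, 12.1 and 16.8 FPKM under rFGF4 and 14.8, 54.1, 21.6 and 40.9 FPKM under vehicle. H2-Q4 had its 4 highest values in the same mice as B2m, whereas H2-T23 in rFGF4 mouse 1 was level with vehicle mouse 4. H2-T23 had the lowest estimate of class I, -0.41 ± 0.51 (95% interval -1.57 to 0.76, adjusted p = 0.932). H2-M3, which presents formylated bacterial peptides, ranged from 0.992 to 6.13 FPKM under rFGF4 and from 1.09 to 10.0 FPKM under vehicle.

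Of the remaining heavy chains above a mean of 1 FPKM, H2-Q6 ranged from 4.02 to 32.4 FPKM under rFGF4 and from 6.18 to 46.7 FPKM under vehicle, and H2-T22 from 10.0 to 23.4 and from 11.4 to 34.2 FPKM. H2-Q7 ranged from 0.830 to 10.0 and from 1.66 to 14.8 FPKM, H2-Q5 from 0.399 to 7.06 and from 0.893 to 10.1 FPKM, and H2-Q1 from 1.58 to 10.9 and from 1.62 to 14.2 FPKM. These ranges overlapped almost completely between the groups. H2-Q2 ranged from 0.741 to 7.57 and from 0.687 to 9.46 FPKM, H2-T10 from 0.965 to 4.83 and from 0.942 to 3.62 FPKM, and H2-T24 from 0.996 to 6.03 and from 0.788 to 4.46 FPKM. H2-K2 ranged from 0.461 to 3.22 and from 0.229 to 3.36 FPKM, and the pseudogene H2-T-ps from 0.360 to 3.03 and from 0.288 to 3.80 FPKM. Of H2-Q5, H2-Q7, H2-Q6 and H2-Q1, between 8.84% and 12.9% of the 100-base transcript windows recur in another member. The shares were 8.8% for H2-Q10 and H2-T22, 6.05% for H2-T10, 5.37% for H2-T-ps and 4.44% for H2-D1. Reads of all these genes may thus be shared with other members, and their separate values are uncertain. H2-M2 was not tested; it was at 2.11, 0.497 and 0.0758 FPKM in rFGF4 mice 1, 2 and 3 and at 0.317, 0.0301 and 5.37 FPKM in vehicle mice 3, 4 and 5, and was listed at the floor in rFGF4 mouse 5 and vehicle mouse 2. The tested H2-Q10 lay between 0.211 and 1.43 FPKM, and H2-Bl, H2-M5, H2-M6-ps and H2-T3 did not exceed 0.705 FPKM in any mouse.

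Over the 21 tested class I genes the median log2 fold change was -0.13, with 8 estimates above and 13 below 0, and over the 9 class II genes it was 0.06, with 5 above and 4 below. The median of all tested genes was 0.09. With the libraries scaled to a common median ratio the class II median was -0.06, and without the filter on low values -0.086, so its sign rests on the processing. By limma, 0 of the 30 genes had an unadjusted p under 0.05, against 4.62% of all tested genes, and 0 had groups that did not overlap, against 3.33%. None of the 15150 tested genes reached an adjusted p of 0.05, the smallest being 0.918. Of the genes past the cut-offs, 165 were higher and 66 lower under rFGF4, a split of 93 and 81 after scaling. Without vehicle mouse 5 the class medians were 0.15 and 0.79, and without rFGF4 mouse 1 they were -0.32 and -0.42, again with 0 genes past the threshold in either class. The intervals were wide: for 13 of 21 class I and 9 of 9 class II genes the 95% interval reached beyond a log2 fold change of 1 in both directions, so a difference of that size in either direction was not detectable with these mice.

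**Figure D3:**
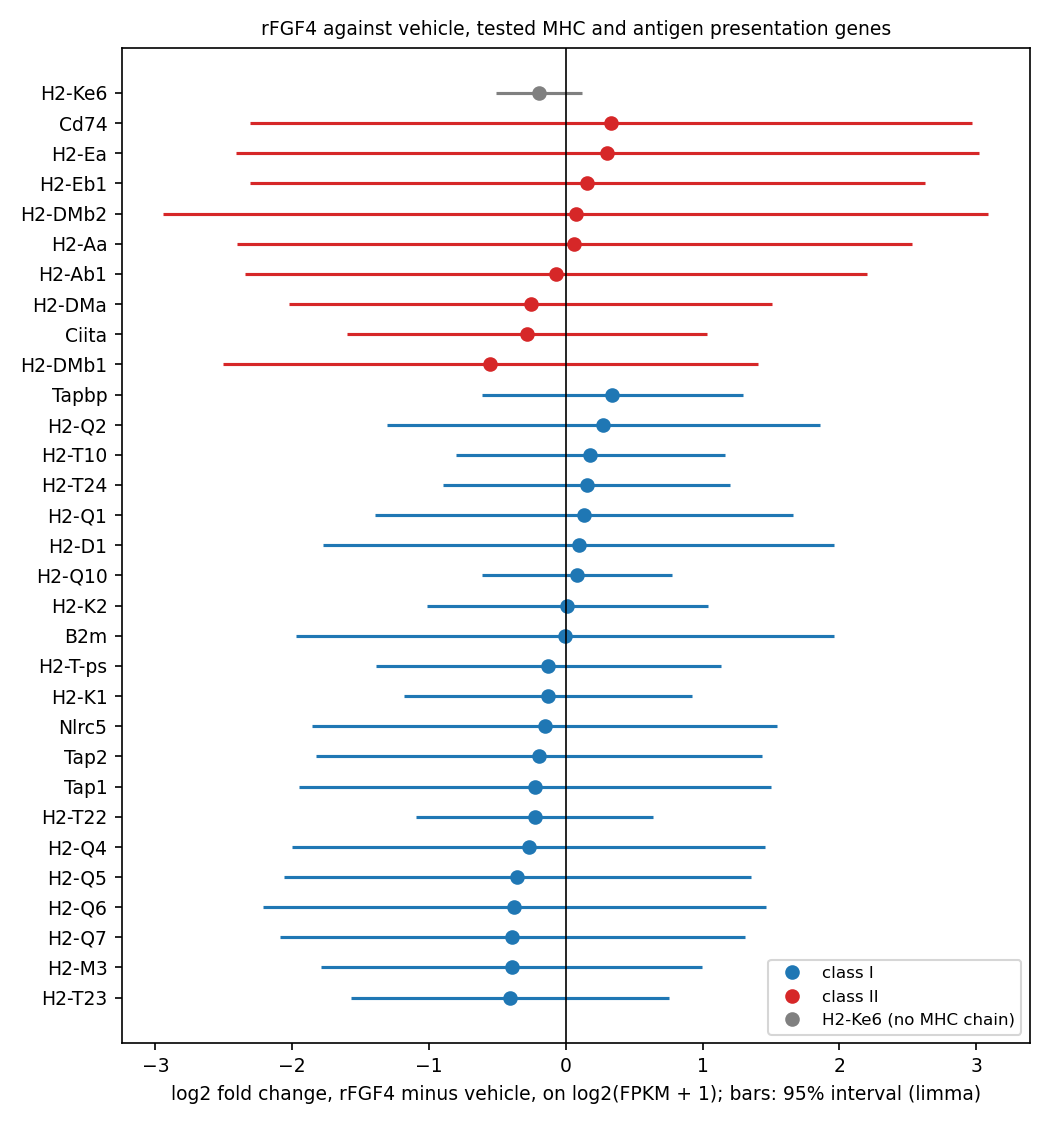
Log2 fold change, rFGF4 minus vehicle, on log2(FPKM + 1) for the 21 class I genes, 9 class II genes and H2-Ke6; points are limma estimates and bars their 95% intervals over 4 mice against 4. Every interval includes 0; the widest, from -2.94 to 3.09, is that of H2-DMb2, and the median SE is 0.67 in class I and 1.08 in class II.

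The width came from the spread between mice of one group. The SD within groups on log2(FPKM + 1) had a median of 1.10 over class I, 1.78 over class II and 0.275 over all tested genes. The class I median exceeded the SD of 96.5% of the tested genes and the class II median that of 99.0%, and 27 of the 30 genes lay above the 90th percentile of 0.695. H2-Ke6 had an SD of 0.18 and stood at 16.6, 22.8, 21.1 and 23.7 FPKM under rFGF4 and 23.5, 23.6, 27.4 and 22.0 FPKM under vehicle. Its highest value exceeded the lowest by a factor of 1.65, and its estimate was -0.20 ± 0.14 (95% interval -0.51 to 0.12, adjusted p = 0.920).

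**Figure D4:**
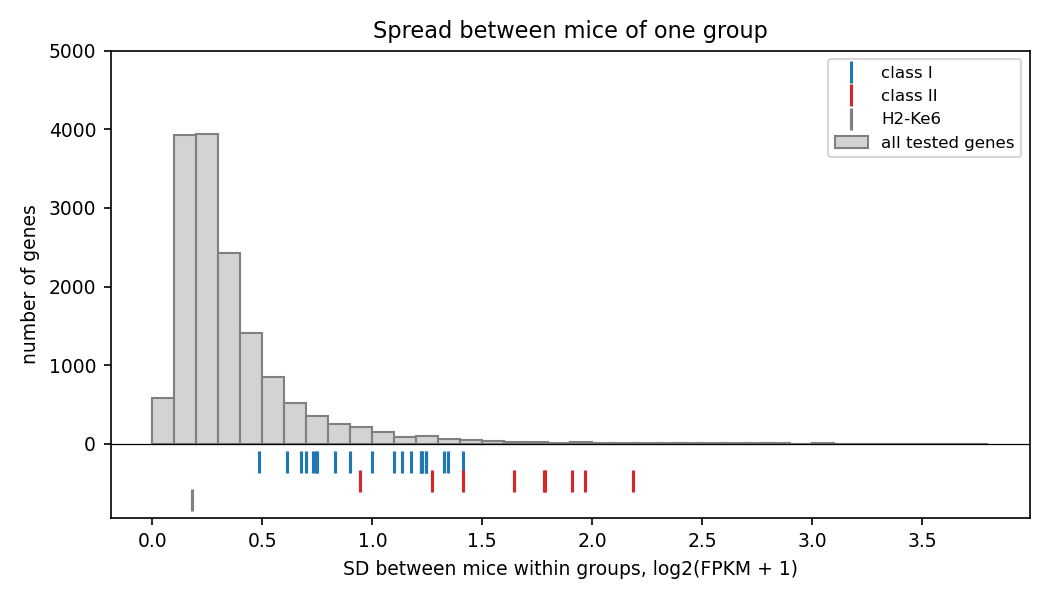
Number of tested genes (bars, left axis) by the SD between mice within groups on log2(FPKM + 1), with ticks below the axis for the class I genes, the class II genes and H2-Ke6. Class I ticks run from 0.48 to 1.41 and class II ticks from 0.94 to 2.18, against a median of 0.275 for all genes.

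Other genes of the pathways were read beside the members. The immunoproteasome subunits Psmb8, Psmb9 and Psmb10, which replace constitutive subunits and favour class I peptides, had their 4 highest values in the same mice as B2m. Psmb8 was at 16.3, 15.7, 2.06 and 2.06 FPKM under rFGF4 and 1.94, 37.9, 1.77 and 21.6 FPKM under vehicle. The proteasome activators Psme1 and Psme2 and the tapasin relative Tapbpl were also highest in vehicle mouse 3. The general chaperones Calr, Canx and Pdia3 varied little, with factors of 2.08, 1.49 and 1.94 between the highest and lowest mouse against 21.4 for Psmb8. Among the class II pathway genes the cysteine protease Ctss, which trims Cd74, was at 189, 119, 21.9 and 11 FPKM under rFGF4 and 6.37, 37.9, 6.43 and 239 FPKM under vehicle, whereas the X box factors Rfxap, Rfxank and Rfx5 varied by factors of 1.70, 1.76 and 3.78.

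Of 35 genes in lists of the class I, class II and interferon pathways, MHC-like molecules and costimulation, 32 were tested and 1 passed the same cut-offs, against 1.52% of all tested genes. Lgmn, the lysosomal protease legumain, which kidney tubules also make in large amounts, was at 461, 412, 403 and 320 FPKM under rFGF4 and 196, 326, 279 and 262 FPKM under vehicle. The groups overlapped only in rFGF4 mouse 5 and vehicle mouse 3. Its log2 fold change was 0.60 (95% interval 0.15 to 1.04, limma adjusted p = 0.918), and it no longer passed after scaling (0.46), with the mouse number as a block (0.55), or without rFGF4 mouse 1 (0.52), rFGF4 mouse 2 (0.58) or vehicle mouse 2 (0.46). Ctsl, another lysosomal protease, was the only listed gene whose groups did not overlap, from 45.7 to 73.7 FPKM under rFGF4 and 40.2 to 44.6 FPKM under vehicle (log2 fold change 0.32, adjusted p = 0.918, exact permutation p = 0.0286, the smallest possible), against 3.33% of all tested genes. No listed gene passed in the lower direction.

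Some interferon genes and leukocyte markers had their 4 highest values in the same mice as the members: 3 of 7 tested interferon pathway genes, 6 of 8 macrophage markers, 0 of 3 dendritic cell markers, 0 of 2 B cell markers and, over all cell type lists, 9 of 33, against 17.4% of all tested genes. Irf1, a transcription factor induced by interferon gamma, was at 15.6, 16.7, 3.57 and 3.23 FPKM under rFGF4 and 3.84, 39.4, 3.48 and 20.9 FPKM under vehicle. The macrophage marker C1qb was at 181, 78.0, 25.2 and 12.6 FPKM under rFGF4 and 7.61, 44.2, 9.39 and 181 FPKM under vehicle. Vehicle mouse 3 was thus the highest mouse for Irf1, Ciita, Nlrc5, Tap1 and Psmb8, while rFGF4 mouse 1 and vehicle mouse 5 were the highest for C1qb. Among the 7 tested interferon pathway genes, however, Irf1 was the only 1 highest in vehicle mouse 3. The highest mouse was rFGF4 mouse 1 for 3 of them and vehicle mouse 5 for 3. The ratio of H2-Ab1 to C1qb was 4.72 in vehicle mouse 3 and between 0.764 and 2.66 in the other mice.

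**Figure D5:**
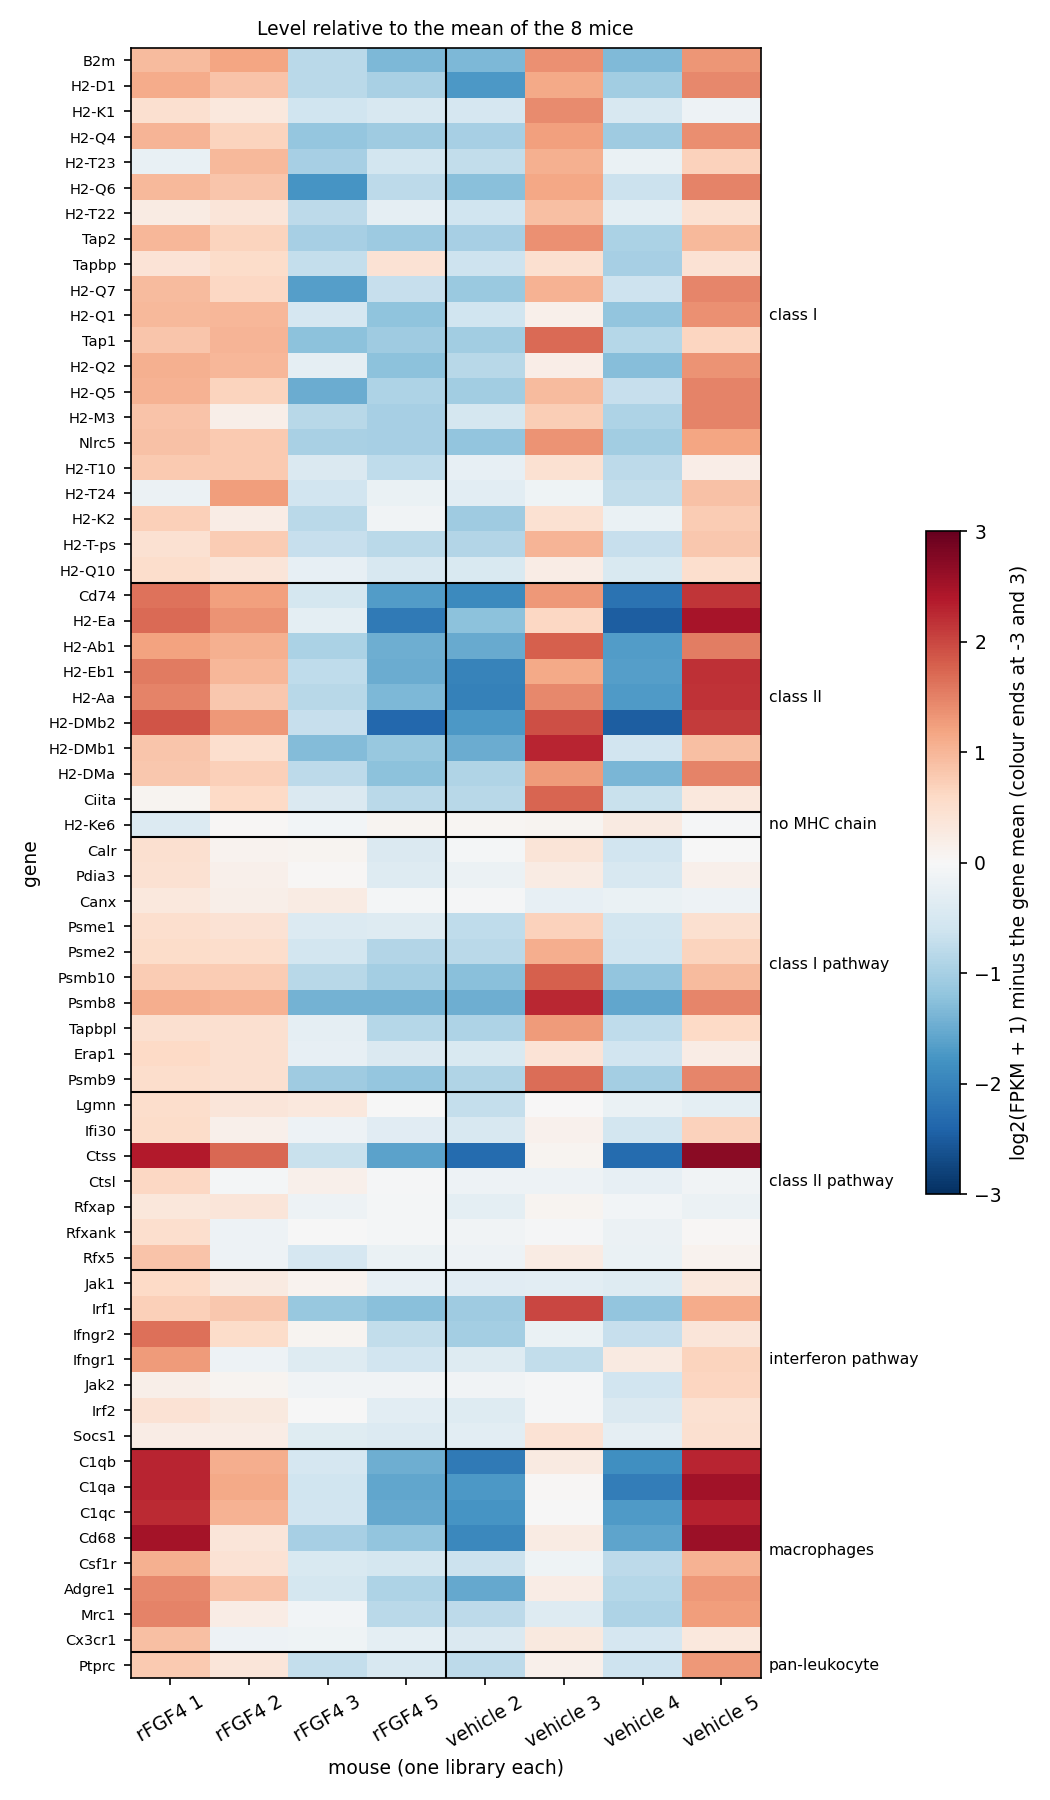
Level of each tested class I and class II gene, H2-Ke6, pathway gene, macrophage marker and Ptprc in the 8 mice, as log2(FPKM + 1) minus the mean of that gene over the 8 mice; red is above and blue below the mean, and the colours end at -3 and 3. Vehicle mouse 3 is the darkest red column for Irf1, Psmb8 and Tap1, and rFGF4 mouse 1 and vehicle mouse 5 are for C1qa, C1qb and Cd68.

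Summed over each list, the 37 class I members lay between 417 and 1874 FPKM under rFGF4 and between 364 and 2230 FPKM under vehicle, and the 14 class II members between 158 and 1533 and between 122 and 2289 FPKM. The 8 macrophage markers summed to 40.3 to 508 FPKM under rFGF4 and 30.2 to 541 FPKM under vehicle, and 6 of the 8 had their 4 highest values in the same mice as the class II genes. The 7 dendritic cell markers summed to 2.41 to 13.8 and 1.24 to 19.6 FPKM, the 4 B cell markers to 0.719 to 4.64 and 0.376 to 47.9 FPKM, and the 5 T cell markers to 0.853 to 9.51 and 0.379 to 24.6 FPKM. The 5 lymph node genes Ltb, Cxcl13, Ccl19, Ccl21a and Cr2 summed to 5.97 to 18.4 and 3.49 to 82.7 FPKM, and Ptprc, the leukocyte antigen CD45, ran from 0.250 to 2.53 and from 0.183 to 3.98 FPKM. Proximal tubule markers had their 4 lowest sums in rFGF4 mice 1 and 2 and vehicle mice 3 and 5, from 184 to 656 FPKM. In the other mice they summed to between 869 and 1028 FPKM. None of these markers was listed at the floor in all 8 mice, and 0 of 33 tested cell type markers passed the threshold. Their part in the class I and class II levels was not tested, and in whole kidney more cells of a type and more RNA per cell cannot be told apart.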

How the data were processed

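Poly(A) RNA of kidneys from 8 mice was sequenced as paired-end reads. The authors assembled mapped reads with StringTie, merged transcripts with gffcompare and deposited FPKM per gene; the submitters' processing notes name HISAT2 2.0, StringTie 1.3.0, Bowtie 0.12.2 and the build mm8, with no role. The deposited table also holds the fold change, log2 fold change, p-value and q-value of the authors' edgeR comparison, which were not used. The lowest frequent value, 0.0001, was read as standing for 0. Without counts, the counting error of a value is unknown. Gene positions are from GENCODE M21 on GRCm38, in which all 52 members were found, and promoters from RefSeq.

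Mice were grouped by sample title. Genes with at least 0.5 FPKM in 4 or more libraries (15150) were compared as log2(FPKM + 1) in R 4.3.3 by the moderated test of limma 3.58.1 with a mean-variance trend and Benjamini-Hochberg adjustment over all of them; fold changes on this scale understate changes of low genes. An exact permutation test over the 8 mice, two-sided, was added for single genes. The members and lists were chosen with earlier results of these data known. Named genes are members averaging 1 FPKM or more and listed genes past the threshold or with groups that do not overlap; other genes, including H2-Q10, the low members, Canx, Calr, Pdia3, Ctss, Rfxap, Rfxank, Rfx5, Psmb8 to Psmb10, Psme1, Psme2, Tapbpl, Irf1 and C1qb, were named after their values were seen. Of the lists, 3 genes were left out of every count and sum and are not reported here. The 4 mice with high values were singled out in the same way and were neither averaged nor tested. Alternatives were a pseudocount of 0.1, no filter, a filter at 1 FPKM, libraries scaled to one median ratio, limma array weights, a block for the mouse number and each library left out. The procedure was tested on simulated data. Plots used matplotlib 3.10.9 (Python 3.11.15).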

Additional observations from a re-analysis of the deposited data

Results flagged for a closer look

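Among 70 sets of 4 mice examined, 2 held a mouse far from the other 3, where chance gives about 1 in 20, or 3.5. Each set was 1 gene, or the class I or class II sum, in 1 group. The sets come from the same mice and are not independent of each other. Tapbp in rFGF4 mouse 3 was the lowest of its group at 6.22 FPKM, with the next mouse at 15.0 FPKM, a gap of 0.903 of the range of the group on the log2 scale. H2-M2 in vehicle mouse 5 was the highest of its group at 5.37 FPKM, with the next mouse at 0.317 FPKM, a gap of 0.851 of the range.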

How the results depend on the processing

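The counts of class I and class II genes past the threshold were 0 under all 14 alternatives, as were those with an unadjusted p under 0.05; the smallest p of a member was 0.115, without rFGF4 mouse 2. The precision is limited by 4 mice a group and their spread; counting error is unknown. The count over all genes was 348 with a pseudocount of 0.1, 490 with array weights and 187 to 575 with 1 library left out (575 without rFGF4 mouse 5, 432 without vehicle mouse 5), against 231. The listed genes past it, 1 in the main comparison, were 0 after scaling, 0 with the block, 2 with array weights and 0 to 3 with 1 library left out (3 without vehicle mouse 5). An adjusted p under 0.05 was reached by 1 gene without the filter and by 0 to 1 with 1 library left out. The cause of these shifts was not tested.

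The mouse numbers 2, 3 and 5 recur in both groups, but the correlations of their deviations from the group means were -0.23, -0.16 and -0.39. These values show no likeness between mice of the same number. The labels do not say what the numbers stand for, so whether they pair the samples is not settled. With the number as a block, 262 genes passed, and the estimates that changed sign were H2-D1 -0.59, Tapbp -0.015, H2-Q1 -0.54, H2-Q2 -0.42, H2-T10 -0.28, H2-K2 -0.29, Cd74 -0.84, H2-Ea -0.98, H2-Eb1 -0.86, H2-Aa -0.97, H2-DMb2 -1.35 and H2-Q10 -0.22.

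No member passed the threshold under any alternative, so the signs below are of estimates within their error. With libraries scaled to one median ratio the estimates that changed sign were H2-D1 -0.034, H2-K2 -0.066, H2-Aa -0.062 and H2-DMb2 -0.039. With array weights they were B2m 0.70, H2-K1 0.020, H2-Q4 0.22, H2-T23 0.064, H2-Q6 0.065, H2-T22 0.0012, Tap2 0.23, Tap1 0.23, H2-Q5 0.045, Nlrc5 0.38, H2-T-ps 0.32, H2-Ab1 0.70, H2-DMa 0.38 and Ciita 0.18. The medians of class I and class II were -0.56 and -0.98 with the block, 0.23 and 0.87 with array weights, -0.24 and -0.062 after scaling and -0.13 and -0.086 without the filter, against -0.13 and 0.064. They ran with 1 library left out from -0.46 to 0.19 in class I and from -0.59 to 0.79 in class II. The genes whose estimate changed sign with at least 1 library left out had log2 fold changes of B2m -0.46 to 0.45, H2-D1 -0.46 to 0.59, H2-K1 -0.32 to 0.32, H2-Q4 -0.67 to 0.15, H2-Q6 -0.86 to 0.15, H2-T22 -0.47 to 0.032, Tap2 -0.56 to 0.23, H2-Q7 -0.82 to 0.095, H2-Q1 -0.24 to 0.61, Tap1 -0.61 to 0.30, H2-Q2 -0.10 to 0.77, H2-Q5 -0.76 to 0.086, H2-M3 -0.77 to 0.034, Nlrc5 -0.58 to 0.27, H2-T10 -0.055 to 0.47, H2-T24 -0.24 to 0.47, H2-K2 -0.34 to 0.28, H2-T-ps -0.44 to 0.19, Cd74 -0.35 to 1.10, H2-Ea -0.47 to 1.18, H2-Ab1 -0.64 to 0.51, H2-Eb1 -0.48 to 0.91, H2-Aa -0.60 to 0.80, H2-DMb2 -0.74 to 0.87, H2-DMb1 -1.14 to 0.12, H2-DMa -0.75 to 0.20, Ciita -0.61 to 0.25 and H2-Q10 -0.079 to 0.27.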

Other observations

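Of the 6 MHC-like molecules outside the H2 symbols, 5 were tested, and 0 of the 5 had their 4 highest values in rFGF4 mice 1 and 2 and vehicle mice 3 and 5, against 17.4% of all tested genes, a difference that was not tested. Fcgrt, the neonatal Fc receptor, which pairs with B2m, was at 56.1, 64.6, 79.5 and 57.0 FPKM under rFGF4 and 48.7, 64.7, 56.3 and 53.8 FPKM under vehicle, a factor of 1.63 between the highest and lowest mouse against 6.61 for B2m. Hfe, a regulator of iron uptake that also pairs with B2m, varied by a factor of 1.86. All 3 tested genes of the costimulation list, Cd274, Cd86 and Cd40, had their 4 highest values in those mice. Of the checkpoint ligand Cd274, vehicle mouse 3 held 12.1 FPKM and the other 7 mice 0.593 to 5.52 FPKM. These genes were named after their values were seen.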
